A study of Mus musculus with 4 samples.

Results

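The N6-methyladenosine (m6A) peaks of 50 genes of the cell cycle machinery were examined in splenic natural killer (NK) cells of the mouse. The genes were chosen by symbol, for their role in the cycle and not for a measured value, though with earlier results of these data known. A peak was counted for a gene when the deposited peak list assigned it to that gene's Ensembl identifier. All 50 symbols were found in the annotation of the mouse genome build GRCm38, and 41 of the 50 genes had a listed peak. They held 75 of the 20727 distinct peaks in the list. The data came from methylated RNA immunoprecipitation sequencing (MeRIP-seq), in which poly(A) RNA is fragmented, fragments that carry m6A are enriched with an antibody, and the enriched and the untreated (input) fragments are both sequenced. Both groups, 2 m6A immunoprecipitates and 2 input RNA libraries, came from wild-type C57BL/6 mice. The labels give no age, and the methods give 1 range for all mice of the study, which were young adults. The methods state that NK cells were amplified in the living animal with pLIVE-IL-15, a plasmid that expresses interleukin-15, before they were sorted from the spleen, so all values are from cells exposed to extra interleukin-15. By their labels the groups differ only in the antibody step, and no condition, time or genotype was compared.

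The cell cycle is driven by cyclin-dependent kinases (CDKs), which act when a cyclin partner is bound. D-type cyclins with Cdk4 or Cdk6 start the phosphorylation of the retinoblastoma family, the pocket proteins, which releases E2F factors to switch on genes for DNA replication, and cyclin E with Cdk2, cyclin A, and cyclin B with Cdk1 then carry the cell through S phase and mitosis. CDK inhibitors, the Wee1 kinase and checkpoint kinases hold these steps back, and Cdc25 phosphatases release them. NK cells divide little at rest and are driven into cycle by interleukin-15. The m6A mark is placed on messenger RNA within the sequence DRACH (in DNA letters, D stands for any base but C, H for any base but G, and R for a purine) by a complex that contains Mettl3, and is known to bear on the stability and translation of messages.

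The list gave each peak 1 fold enrichment of immunoprecipitate over input and 1 peak-calling p-value for all 4 libraries together. Columns for single samples numbered 0, so no value below has an error between replicates, no difference was tested, and the depth behind each peak is unknown. Intervals are exact 95% binomial intervals for shares, or exact Poisson intervals for densities, and cover counting error only. Peaks and genes are not replicates. As a check of the labelled cell type, 10 of 10 NK cell marker genes had a listed peak, against 4 of 7 T cell markers (none at Cd4, Cd8a or Foxp3), 6 of 7 myeloid markers and 3 of 4 erythroid markers. The CD3 genes of T cells, Cd3d, Cd3e and Cd3g, had peaks of highest fold 5.69, 30.3 and 31.6 (lowest log10 p -9.43, -6.35 and -46.8), and the B cell genes Cd79a, Cd79b and Pax5 had 7.59, 2.69 and 75.9 (log10 p -9.11, -27.6 and -17.1). The 10 NK markers had no strong peak, and their lowest log10 p ran from -25 (Ncr1) to -322 (Nkg7). The myeloid and erythroid markers had no strong peak either. The lowest log10 p of the 6 myeloid genes with a peak ran from -35.3 (Adgre1) to -322 (Csf1r). Among the erythroid genes it was -2440 for Hbb-bs, -788 for Hba-a1 and -3.61 for Klf1. By p, the NK markers thus did not stand apart from markers of other cells. A peak does not give an expression level, and the part of other cells in the peaks below was not tested.

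The sequences under the 10 cell cycle genes with the lowest p-values among peaks placed on the coding transcript are shown because these peaks have the most statistical support in the gene set. Each line gives 25 nt of the GRCm38 reference, 5′ to 3′ on the strand of the gene, around the DRACH site nearest to the centre of the exonic part of the peak, with the site in capitals. Of the 10 sites, 9 lay in the 3′ untranslated region (UTR) and that of Cdkn2d lay in the coding sequence. The capitals mark a match to the motif within a peak and not a measured methylated base. The peaks of Rbl2 and, by 15 nt, of Cdk4 run over an exon of a gene on the opposite strand, and the Rbl2 site lies within that stretch. These peaks are therefore uncertain for the named gene.
Ccnd2 (chr6:127125451-127125475, minus strand): gtgtactctcTAACAggtgtgggtg
Cdkn1b (chr6:134925300-134925324, plus strand): tttttaatctAGACAatatacaagc
Pcna (chr2:132249582-132249606, minus strand): gaaattgagaAAACTaaacctttga
Rbl2 (chr8:91123548-91123572, plus strand): gaaaattattTAACAgctattgatt
Cdk6 (chr5:3522068-3522092, plus strand): gtgtgtgtatAGACTactaccgact
Cdk4 (chr10:127067045-127067069, plus strand): cttggtggagAAACCctcgctgaag
Mcm2 (chr6:88883624-88883648, minus strand): aacttttccaGAACAttctcaaagc
Top2a (chr11:98993191-98993215, minus strand): cgtagagtacTGACTctactcggga
Cdkn2d (chr9:21289151-21289175, minus strand): tcaatgccctGGACAgcactgggtc
Mki67 (chr7:135690010-135690034, minus strand): aaagtaaattTGACTtagtgataag

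A listed peak was found in 82% of the cell cycle genes (41 of 50, interval 68.6% to 91.4%), against 46.3% of all 21951 protein-coding genes. The 9 genes without one were Ccna2 and Ccnb1 (cyclins A2 and B1), the repressor E2f7, the helicase subunits Mcm3 and Mcm7, the phosphatases Cdc25a and Cdc25b, the mitotic kinase Plk1 and Cdc20, an activator of the anaphase promoting complex. These 9 had annotated coding transcripts of 1793 to 5473 nt (median 2965) with 31 to 115 DRACH sites (median 56), and the 41 with a peak had a median of 3381 nt and 65 sites. Both lengths and motif numbers overlapped widely between them. The level of each transcript was not measured here, so a message without m6A and a message with too few reads cannot be told apart. This also bears on the 46.3%, which counts all annotated protein-coding genes, whether or not these cells express them. The difference between 82% and 46.3% was not tested.

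The peaks of the cell cycle genes were mostly of moderate enrichment. Their median fold enrichment was 2.19 (interquartile range 1.65 to 3.79, extremes 1.12 and 27.5), against 2.37 for all peaks of protein-coding genes and 2.66 for the whole list. A fold enrichment of at least 5, called strong here, was reached by 16 of the 75 peaks (21.3%), against 34.6% of all distinct peaks and 29.5% of the peaks of protein-coding genes. These 16 peaks lay in 12 genes, which is 29.3% of the 41 genes with a peak, against 43.4% of protein-coding genes with a peak. The 12 were the D cyclins Ccnd1, Ccnd2 and Ccnd3, their kinase Cdk6, cyclin E1 (Ccne1), the inhibitors Cdkn1b and Cdkn2a, the pocket protein Rbl2, the factors E2f2 and E2f3, the kinase Wee1 and the spindle checkpoint kinase Bub1. A p-value under 0.001 was reached by 46 peaks (61.3%) in 33 genes, against 61.5% of all distinct peaks. The share by p was thus close to that of the whole list, and the difference in the share of strong peaks was not tested. Of the 12 genes with a strong peak, 8 had one that also passed p under 0.001, and 7 of these (Cdk6, Ccne1, Cdkn1b, Cdkn2a, E2f2, Wee1 and Bub1) had one that in addition touched an exon of a protein-coding isoform.

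**Figure D1:**
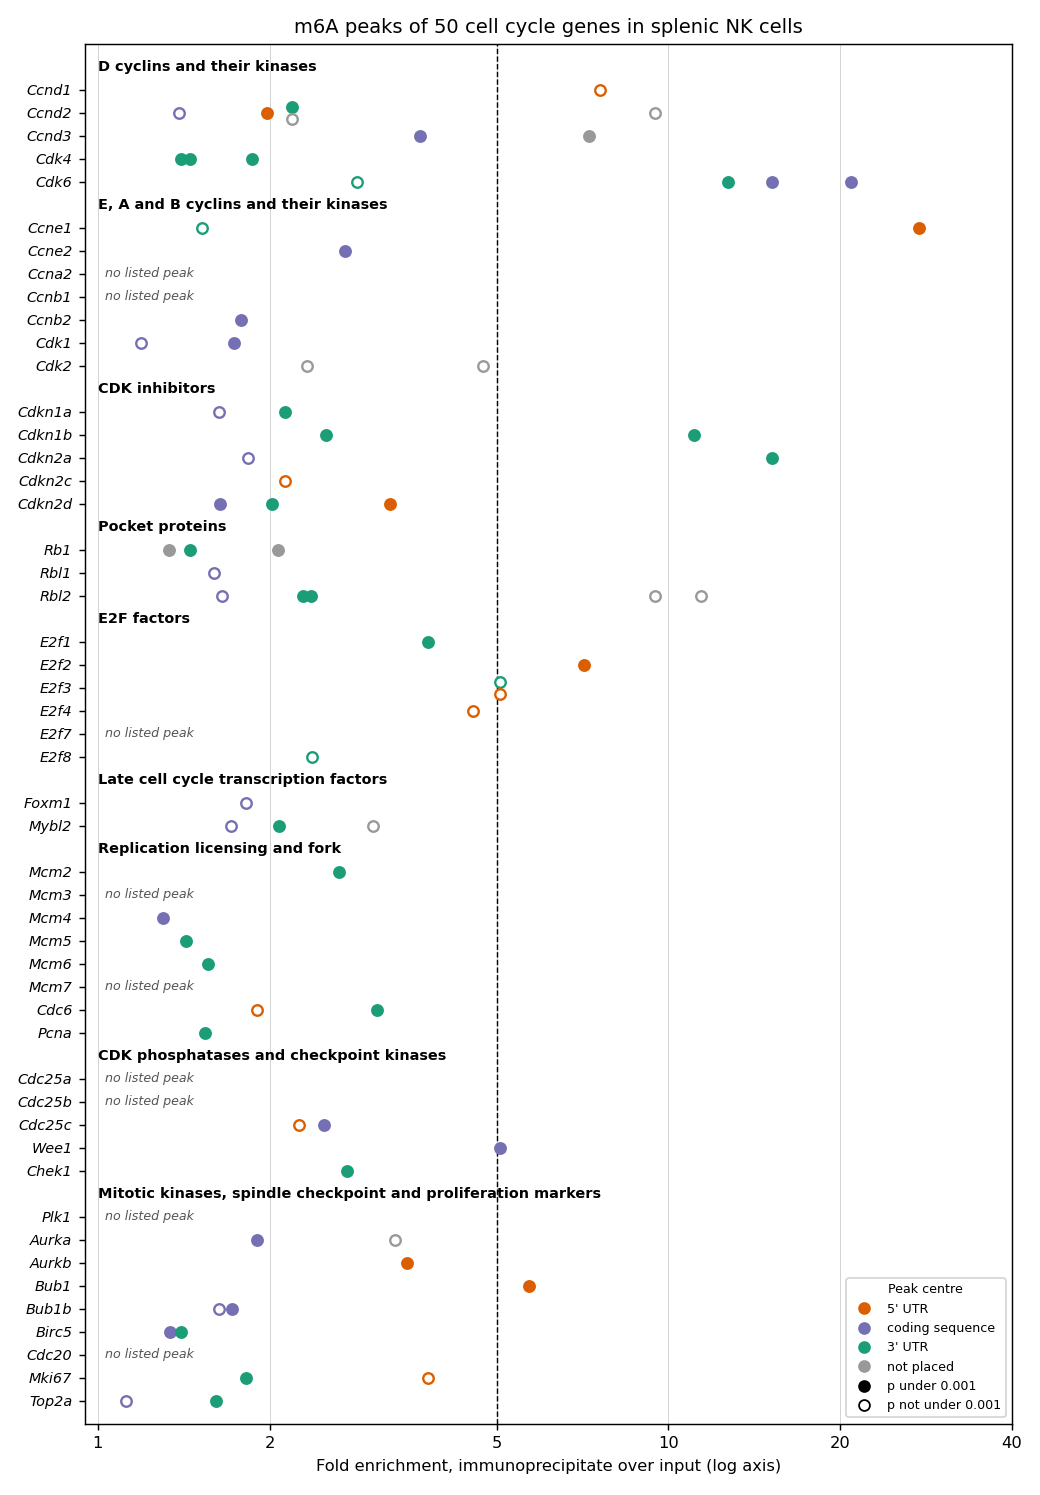
Each point is a peak of one of the 50 cell cycle genes, grouped by role, with its fold enrichment of immunoprecipitate over input on a log axis (points of equal fold in a gene are set apart vertically). Colour gives the place of the peak centre on the coding transcript, filled points had p under 0.001, the dashed line marks a fold of 5, and 16 of the 75 points lie to its right, the farthest being Ccne1 at 27.5.

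Of the 41 genes, 19 had a single peak, 15 had 2, 4 had 3, Cdk6 had 4, and Ccnd2 and Rbl2 had 5 each. A single peak was held by 46.3% of the cell cycle genes with a peak and by 53.3% of the 10174 protein-coding genes with one. The account below follows the order in which the proteins act in the cycle.

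All 5 genes of the D cyclin group had a peak, 15 in all with a median fold of 2.84, and 4 of the 5 had a strong one. Ccnd2, which encodes cyclin D2, held the peak with the lowest p-value of all 50 genes. It covered the last 510 nt of the 6330-nt transcript, at the end of the 3′ UTR (chr6:127125162-127125671), at 2.19-fold enrichment and a log10 p of -86.1, which ranked 641 of 20727 by p and 12053 by fold. This peak was thus far up the list by significance and below its median by enrichment. A peak in the 5′ UTR of Ccnd2 had a fold of 1.98 and a log10 p of -5.88. The remaining 3 peaks of Ccnd2 did not reach p under 0.001, and its only strong one (fold 9.48, log10 p -1.69) lay in an exon of an isoform that codes for no protein and had the same fold and p as 844 other peaks.

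Cdk6, which with the D cyclins phosphorylates pocket proteins, had 3 strong peaks, the most of any gene in the set. The peak with the most support lay in the last exon, centred 1291 nt past the stop codon (chr5:3521872-3522292), with a fold of 12.7 and a log10 p of -28.9. Its rank was 1967 by p and 3676 by fold, so that it stood in the upper part of the list on both. The other two strong peaks, with folds of 20.9 and 15.2 and log10 p of -4.18 and -3.53, overlapped each other, touched only 28 and 36 nt of coding exon 5, and ran over an exon of the antisense gene Gm17590 by 286 and 294 nt. Whether the libraries keep the strand is not given in the sources used here, so reads of Cdk6 and of Gm17590 cannot be told apart there. Its remaining peak, also in the 3′ UTR, had a fold of 2.84 and a log10 p of -1.42.

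Cdk4, the close relative of Cdk6, had 3 peaks without strong enrichment, all with p under 0.001. The widest covered the stop codon (chr10:127066185-127067294, 418 nt of exon) with a fold of 1.86 and a log10 p of -24.6. The other two, with folds of 1.45 and 1.40, overlapped each other in the 3′ UTR and lay wholly over the end of Tspan31, a gene on the opposite strand. Ccnd3 had a peak of fold 3.67 (log10 p -5.97) across the start of the coding sequence and one of fold 7.27 (log10 p -7.95) in a non-coding isoform. Ccnd1 had 1 peak, at the first 95 nt of its transcript, with a fold of 7.59 and a log10 p of -1.42. The 3 D cyclins thus each had a fold of over 5 somewhere, but none of these peaks both passed p under 0.001 and touched a coding isoform.

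Of the 7 genes for cyclins E, A and B and their kinases, 5 had a peak, with a median fold of 2.06 over 8 peaks. Ccne1, the cyclin that partners Cdk2 at the start of S phase, held the highest fold enrichment of the set. Its peak (chr7:38106390-38107534) took in the first 344 nt of the coding transcript, with a fold of 27.5 and a log10 p of -13.0, and ranked 1882 of 20727 by fold. A second Ccne1 peak near the stop codon had a fold of 1.52 and a log10 p of -2.10. Its paralog Ccne2 had a peak of fold 2.71 (log10 p -9.04) centred 110.5 nt before the stop codon.

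Both mitotic members of this group with a peak had one over the stop codon. Ccnb2 (cyclin B2) had a fold of 1.78 and a log10 p of -8.91 there, and its kinase Cdk1 had 1.73 and -5.52. Cdk1 also had a peak of fold 1.19 (log10 p -1.82) in coding exon 5. Cdk2 was the only gene of the 41 whose peaks all touched no protein-coding isoform, with folds of 4.74 and 2.33 and log10 p of -1.34 and -1.76. The list therefore gave no peak on a coding message of Cdk2.

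All 5 CDK inhibitor genes had a peak, with a median fold of 2.13 over 10 peaks. Cdkn1b encodes p27, which binds and blocks cyclin-CDK complexes and is known to keep cells at rest. Its 2 peaks lay in the distal 3′ UTR, with 151 nt at a fold of 11.1 and a log10 p of -11.3 (chr6:134924555-134924705) and the last 390 nt of the transcript at 2.51 and -69.1 (chr6:134925124-134925513). The latter had the next lowest p after Ccnd2, with rank 828 of 20727. Both Ccnd2 and Cdkn1b, which act in opposite directions on the cycle, thus had their best supported peak at the very end of a long 3′ UTR.

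Cdkn2a, a locus that gives rise to an inhibitor of Cdk4 and Cdk6 and to a regulator of p53, had a peak of fold 15.2 (log10 p -3.95) in the last 224 nt of the transcript. Its other peak had a fold of 1.83 and a log10 p of -1.78. Cdkn2d, an inhibitor of Cdk4 and Cdk6, had peaks in all 3 regions of its short transcript of 1423 nt. The fold was 3.25 (log10 p -12.6) in the 5′ UTR, 1.64 (-16.4) in the coding sequence up to the stop codon and 2.02 (-7.07) at the 3′ end. Cdkn1a, the p21 gene that p53 induces, had a fold of 2.13 (log10 p -6.51) in the 3′ UTR and 1.63 (log10 p -2.48) in the coding sequence. Cdkn2c had a single peak of fold 2.13 in the 5′ UTR, with a log10 p of -2.89 that did not reach p under 0.001.

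The 3 pocket protein genes held 9 peaks with a median fold of 2.07. Rbl2, which encodes p130, the pocket protein associated with resting cells, had 2 overlapping peaks near the end of the 3′ UTR with folds of 2.36 and 2.29 and log10 p of -29.5 and -27.0 (chr8:91123274-91123790 for both). Both ran over exons of Aktip on the opposite strand, by 286 and 240 nt. Its strong peaks, with folds of 11.4 and 9.48, had log10 p of -2.09 and -1.69, touched no coding isoform, and had the fold and p of 531 and 844 other peaks. Rb1, the retinoblastoma gene, had a peak of fold 1.45 (log10 p -3.22) in its 3′ UTR. The 2 other Rb1 peaks, with folds of 1.33 and 2.07, lay within exons of Lpar6, a receptor gene inside the Rb1 locus on the opposite strand, and one of them touched no exon of Rb1 at all. Rbl1 had a single peak in the coding sequence with a fold of 1.60 and a log10 p of -2.15.

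Of the 6 E2F genes, 5 had a peak, and their median fold of 4.81 over 6 peaks was the highest of the 9 role groups. Only 2 of the 6 peaks had p under 0.001. E2f2, an activator, had a fold of 7.11 and a log10 p of -11.1 over the first 300 nt of its transcript (chr4:136172394-136172693), the best supported peak of this group. E2f1, the founding activator, had a fold of 3.79 and a log10 p of -6.45 in the 3′ UTR. E2f3 had a fold of 5.06 at both ends of its transcript, over the first 511 nt (log10 p -1.96) and the last 361 nt (log10 p -2.27). E2f4, which works mainly with pocket proteins as a repressor, had 4.55 (log10 p -2.72) over the first 91 nt, and the repressor E2f8 had 2.37 (log10 p -2.55) over the last 121 nt. Of the 6 E2F peaks, 5 reached one end of the transcript, but among these only that of E2f2 had p under 0.001. Neither the first nor the last 10 nt was reached by 45 of the 64 placed peaks of the cell cycle genes. The same held for 9886 of all 15220 placed peaks. The difference was not tested, so the position at an end cannot be read as particular to the E2F genes.

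Foxm1 and Mybl2 encode factors that switch on genes of the later cycle. Foxm1 had 1 peak of fold 1.82 (log10 p -2.68) in coding exon 8. Mybl2 had a fold of 2.08 (log10 p -4.07) in the 3′ UTR and 1.71 (log10 p -2.26) over the stop codon, with a further peak of fold 3.03 (log10 p -1.38) in a non-coding isoform. None of the 4 peaks of these genes was strong.

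The 8 genes for replication licensing and the fork had 7 peaks in 6 genes, none of them strong, with a median fold of 1.56, the lowest of the 9 role groups. They were nonetheless well supported, since 6 of the 7 peaks and all 6 genes passed p under 0.001. Pcna, the sliding clamp of the replicative polymerases, had a peak over the stop codon (chr2:132249492-132249780) with a fold of 1.54 and a log10 p of -32.4, the lowest p after Ccnd2 and Cdkn1b. Among the subunits of the replicative helicase, Mcm2 had a fold of 2.65 (log10 p -21.1) over the last 331 nt of its transcript. Mcm6 had 1.56 (log10 p -6.70), Mcm5 1.43 (log10 p -5.64) and Mcm4 1.3 (log10 p -4.17), the first of these at the 3′ end, the next in the 3′ UTR and the last in the coding sequence. Cdc6, which loads the helicase, had folds of 3.08 (log10 p -3.40) in the 3′ UTR and 1.90 (log10 p -2.12) at the 5′ end.

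Of the 5 genes for CDK phosphatases and checkpoint kinases, 3 had a peak. Wee1, which inhibits Cdk1 by phosphorylation, had a fold of 5.06 and a log10 p of -12.6 over 301 nt of coding sequence centred in exon 2 (chr7:110124475-110126048). It was the only strong peak in a coding sequence that did not overlap another gene. Its opponent Cdc25c had folds of 2.49 (log10 p -3.81) in the coding sequence and 2.25 (log10 p -2.86) in the 5′ UTR, and Chek1, the checkpoint kinase that acts on Cdc25, had 2.73 (log10 p -3.24) in the 3′ UTR.

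Among the 9 mitotic, spindle checkpoint and proliferation genes, 7 had a peak, all 7 with p under 0.001, and the median fold over 12 peaks was 1.77. Bub1 had a fold of 5.69 and a log10 p of -4.14 over the first 240 nt of its transcript, the only strong peak of the group. Its paralog Bub1b had folds of 1.72 (log10 p -3.10) and 1.63 (log10 p -2.29) in the coding sequence. Aurkb, a kinase of chromosome segregation, had 3.48 (log10 p -5.00) over the first 55 nt, and its relative Aurka had 1.90 (log10 p -3.07) in the coding sequence and 3.32 (log10 p -1.56) in a non-coding isoform. The best supported peaks of the group were those of Top2a and Mki67. Top2a, the topoisomerase that untangles chromosomes, had a fold of 1.61 and a log10 p of -17.3 in the 3′ UTR, and Mki67, the gene of the proliferation marker Ki-67, had 1.82 and -14.4 over 450 nt that covered the stop codon and the end of the transcript. The weakest peaks of these genes were a coding peak of Top2a (fold 1.12, log10 p -1.80) and a 5′ peak of Mki67 (fold 3.79, log10 p -1.31), the latter with the values of 198 other peaks. Birc5, which encodes survivin, had folds of 1.34 and 1.40 with log10 p of -7.22 and -7.38.

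Fold enrichment and significance picked out only partly the same cell cycle genes. A log10 p under -10 was reached by 16 peaks in 13 genes, and 10 of these peaks, in 9 genes, had a fold under 3. They included the leading peaks of Ccnd2, Cdkn1b, Pcna, Rbl2, Cdk4, Mcm2, Top2a and Mki67. In the other direction, 6 of the 16 strong peaks, in Ccnd1, Ccnd2, Rbl2 and E2f3, had p not under 0.001. Strong enrichment with a log10 p under -10 was seen in Cdk6, Ccne1, Cdkn1b, Wee1 and E2f2. Such p-values were common in the whole list. By p, the E2f2 peak (log10 p -11.1) ranked 4882 of 20727 and the Ccne2 peak (log10 p -9.04) ranked 5798. The share of peaks with a fold under 3 among those of log10 p under -10 is not given for the whole list. The split between fold and p therefore cannot be read as particular to cell cycle genes. In 8 genes with a peak (Ccnd1, Cdk2, Cdkn2c, Rbl1, E2f3, E2f4, E2f8 and Foxm1), no peak passed p under 0.001. The other 33 of the 41 genes had such a peak, against 7460 of the 10174 protein-coding genes with a peak. This difference was not tested.

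**Figure D2:**
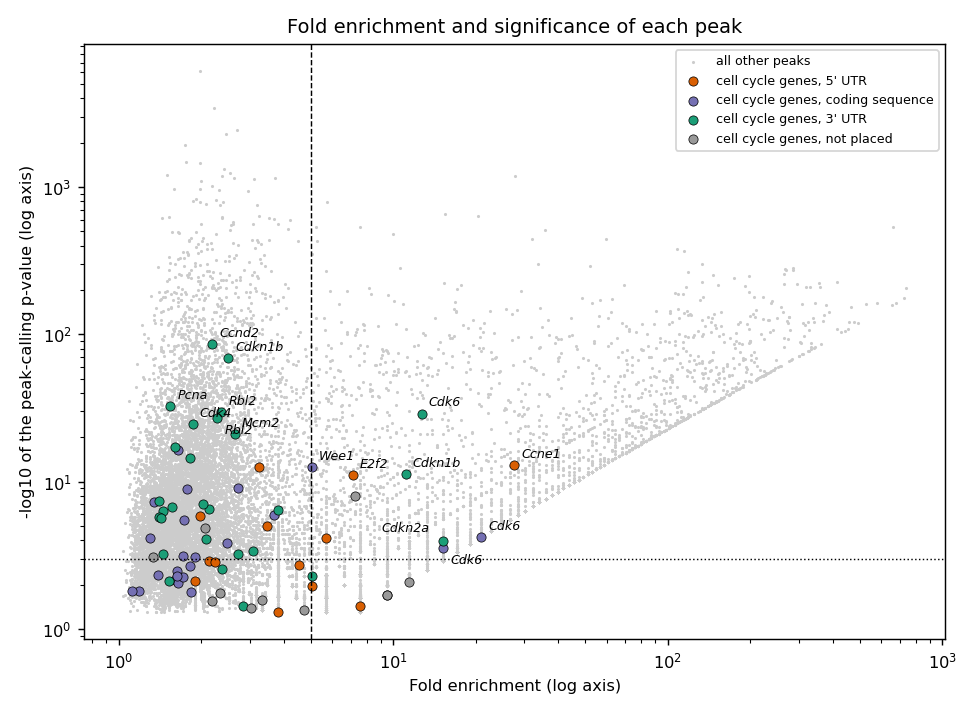
Each grey point is a peak of the whole list and each coloured point one of the 75 peaks of the cell cycle genes, with fold enrichment and -log10 of the peak-calling p-value on log axes; the dashed line marks a fold of 5 and the dotted line a p of 0.001. The cell cycle peaks of lowest p (Ccnd2, Cdkn1b, Pcna) lie left of the dashed line at folds of 1.54 to 2.51, and Cdk6, Ccne1, Cdkn1b, E2f2 and Wee1 lie above 5 with a log10 p under -10.

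Identical values were shared between many peaks. A fold and p that at least 9 other peaks also had were found in 9 of the 75 peaks (12%), against 23.5% of peaks of protein-coding genes. Among strong peaks the shares were 5 of 16 (31.3%) and 60.9%. The 5 were those of Ccnd2, both of Rbl2, the peak of fold 20.9 in Cdk6, which had the values of 112 other peaks, and the 5′ peak of E2f3, which had those of 65. These peaks cannot be ranked against those with the same values.

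Of the 75 peaks, 64 could be placed on the transcript with the longest coding sequence of their gene by the centre of their exonic part. The centre lay in the 5′ UTR for 13 peaks (20.3%, interval 11.3% to 32.2%), in the coding sequence for 23 (35.9%, 24.3% to 48.9%) and in the 3′ UTR for 28 (43.8%, 31.4% to 56.7%). Over all 15220 placed peaks the shares were 9.57%, 36.3% and 54.2%. The 5′ UTR share of all peaks lay under the interval of the cell cycle genes and the other shares lay within theirs, but this rested on the placement by centre. By the region label in the deposited list, 14 of the 75 peaks (18.7%) were in a 5′ UTR, against 18.5% of all distinct peaks. The last exon held the centre of 35 peaks (54.7%), against 65.3% of all placed peaks.

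Near the stop codon, the cell cycle peaks were close to the whole list by one measure and fewer by another. The centre lay within 200 nt of the stop codon in 14 peaks (21.9%, 12.5% to 33.97%), against 23.4% of all placed peaks. The exonic part touched the stop codon itself, counted here as covering it, in 7 peaks (10.9%, 4.51% to 21.3%), against 21.4%, which lies just above that interval. Placed peaks were longer on average in the whole list, with 7173635 nt of exon in 15220 peaks against 13597 nt in the 64. The medians differed less. They were 151, 130 and 240 nt for cell cycle peaks centred in the 5′ UTR, coding sequence and 3′ UTR, against 146, 192 and 210 nt in the whole list. These shares were not adjusted for length. The 7 were in Cdk4, Ccnb2, Cdk1, Cdkn2d, Mybl2, Pcna and Mki67, and none of them was strong. Of the 12 strong placed peaks 0 thus covered the stop codon, with an exact upper bound of 26.5%, against 27.96% of all strong placed peaks. That difference was not tested. The Cdkn2d peak covered the codon only in part, as it ended at nt 859 and the last base of the codon is nt 860.

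**Figure D3:**
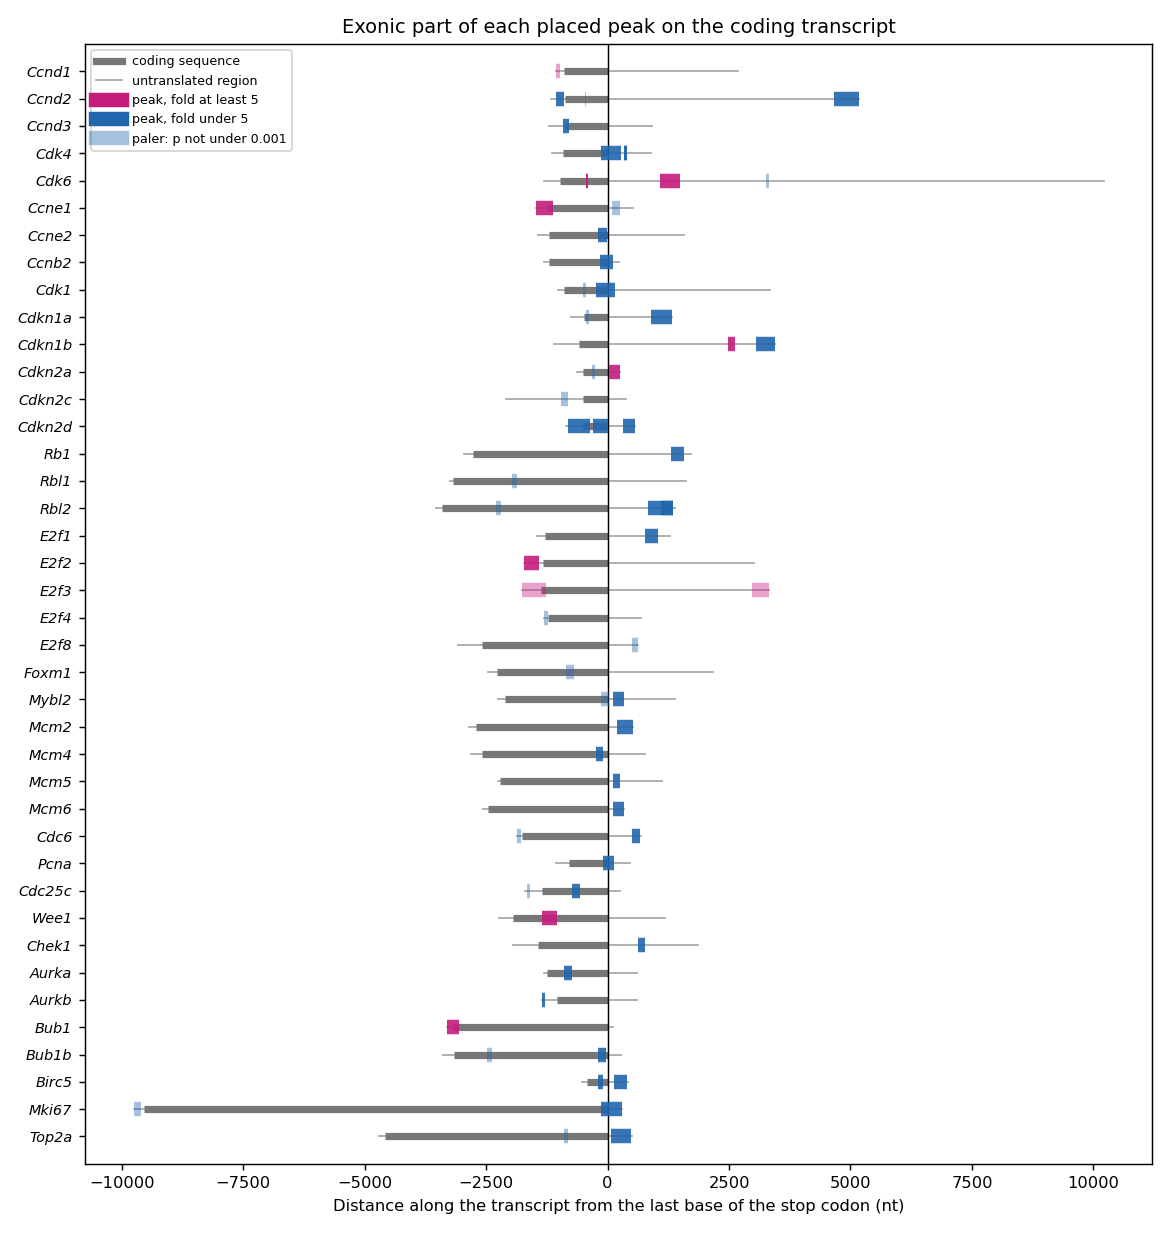
Coding transcripts of the 40 cell cycle genes with a placed peak are drawn to scale and aligned at the last base of the stop codon (x axis, nt), with coding sequence as a thick grey bar, untranslated regions as a thin line and the exonic part of each of the 64 placed peaks as a coloured block (at least 25 nt wide so that it can be seen). Peaks of fold at least 5 are magenta, at the 5′ end in Ccnd1, Ccne1, E2f2, E2f3 and Bub1, and p not under 0.001 is paler. Of the 12 magenta peaks 1 (8.33%) has its centre within 200 nt of the stop codon, close to the 10.6% of all strong placed peaks.

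Median enrichment varied with place, with no test of the difference. The median fold of the cell cycle peaks was 3.79 in the 5′ UTR, 1.72 in the coding sequence and 2.16 in the 3′ UTR, and over all placed peaks it was 3.79, 2.53 and 2.01. Of the 13 peaks in the 5′ UTR, 5 were strong, against 3 of 23 in the coding sequence and 4 of 28 in the 3′ UTR. These are 38.5%, 13.0% and 14.3%, and over all placed peaks the shares were 43.9%, 34.8% and 17.8%. The exonic part reached the first 10 nt of the transcript in 9 peaks (14.1%, against 15.6% of all placed peaks), in Ccnd1, Ccne1, E2f2, E2f3, E2f4, Cdc6, Aurkb, Bub1 and Mki67. Their median fold was 5.06 and 5 of the 9 were strong, while the median of all placed peaks that reached the first 10 nt was 11.4. The last 10 nt were reached by 10 peaks (15.6%, against 24.2%), with a median fold of 2.28, in Ccnd2, Cdkn1a, Cdkn1b, Cdkn2a, Cdkn2d, E2f3, E2f8, Mcm2, Mcm6 and Mki67. Only E2f3 and Mki67 had a peak at both ends.

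**Figure D4:**
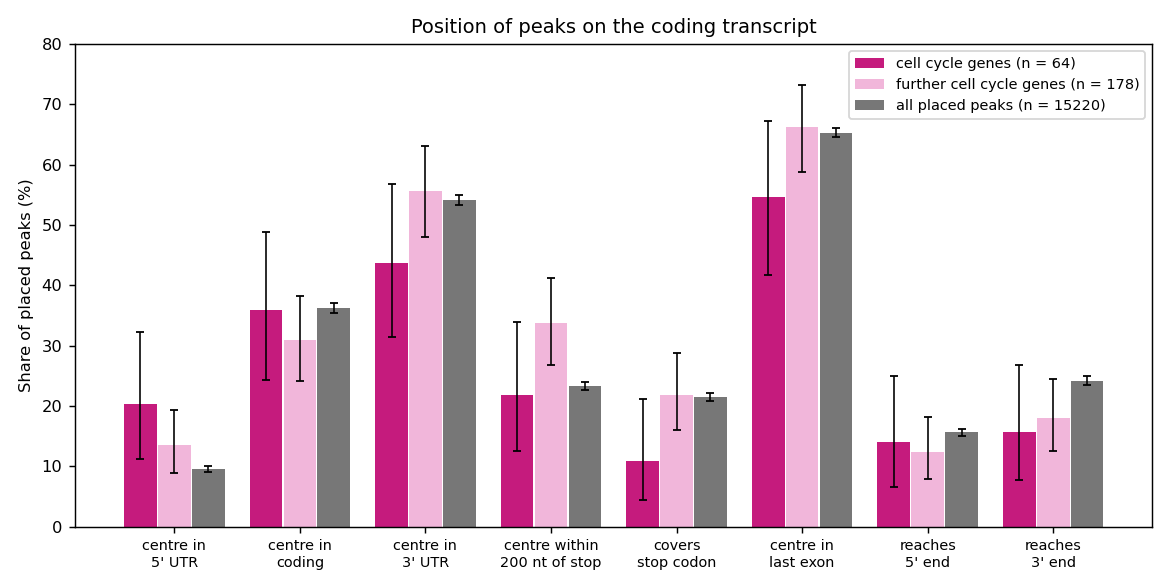
Bars give the share of placed peaks, in percent, that meet each criterion on the x axis, for the 64 peaks of the cell cycle genes, 178 peaks of a wider list of cell cycle genes and all 15220 placed peaks, and error bars are exact 95% binomial intervals (counting error only). The cell cycle genes have 20.3% of centres in the 5′ UTR against 9.57% of all placed peaks (18.7% against 18.5% by the deposited region label), and 10.9% of peaks over the stop codon against 21.4%. Shares were not adjusted for the length of the peaks.

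Some of these peaks lay outside the coding message of the gene named. In 10 of the 75 peaks (13.3%), in Ccnd2, Ccnd3, Cdk2, Rb1, Rbl2, Mybl2 and Aurka, the span touched no exon of a protein-coding isoform, against 9.85% of peaks of protein-coding genes. Of the 16 strong peaks 4 were of this kind (25%), against 17.7% of strong peaks of protein-coding genes. Exons of another gene were overlapped by 10 peaks in 4 genes, Cdk4 (Tspan31), Cdk6 (Gm17590), Rb1 (Lpar6) and Rbl2 (Aktip), and in every case that gene lay on the opposite strand. The values of these 10 peaks are therefore uncertain for the named gene. Such overlaps were not counted over the whole list, so their number cannot be read as particular to cell cycle genes.

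DRACH sites were about as dense in the peaks as in the rest of the same transcripts. On the strand of the gene, the exonic parts of the 64 placed peaks held 264 DRACH sites in 13597 nt, or 19.4 per kb (interval 17.1 to 21.9), against 20.96 per kb in the rest of their transcripts and 20.2 per kb in all placed peaks. At least 1 site was present in 57 of the 64 peaks (89.1%), against 89.7% of all placed peaks. In the 100 nt around the centre it was present in 56 peaks (87.5%), against 84.2% of all placed peaks and 85.9% of 331326 windows of 100 nt that tile the transcripts with a placed peak. With a background this high, a DRACH site in a peak marks few peaks out. The narrower motif GGACT, which is a DRACH match and was searched on the same strand, was present in 11 of 64 peaks (17.2%, against 26.8% of all placed peaks), and in the central 100 nt of 6 (9.38%), against 11.0% of all placed peaks and 9.95% of the windows. Placed peaks of the whole list were longer on average. Per kb of exon, GGACT numbered 0.956 (interval 0.509 to 1.635) in the cell cycle peaks, 1.004 in the rest of their transcripts and 1.11 in all placed peaks. Of the 12 strong placed peaks 0 held it, with an exact upper bound of 26.5%, against 42.7% of all strong placed peaks, and in the central 100 nt the shares were 0 of 12 and 9.59%.

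The 13 GGACT sites lay in 10 genes, and those in peaks with p under 0.001 and within 400 nt of a stop codon are printed as the sites where this motif, significance and the stop codon coincide. This choice was made after the values were seen. The lines are written as above, with GGACT in capitals. The site in Ccnb2 starts 8 nt past the stop codon, and the 2 sites of Cdk1 lie on either side of it in the same peak.
Ccnb2 (chr9:70407899-70407923, minus strand): cctagacactGGACTgccatcctgc
Cdk1 (chr10:69340557-69340581, minus strand): agtccctgcaGGACTacaagaacac
Cdk1 (chr10:69338375-69338399, minus strand): actgtcatctGGACTtttcttaatt
Mcm2 (chr6:88883685-88883709, minus strand): ttgtgtttctGGACTgttttgtttt
Mcm5 (chr8:75127490-75127514, plus strand): gagtgtctgaGGACTctctgctctg
Birc5 (chr11:117855501-117855525, plus strand): attgtgacgtGGACTtaagcaataa
Top2a (chr11:98993142-98993166, minus strand): ggaggaggcaGGACTgctcacggtt

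A wider list of 155 further cell cycle genes, which covers other cyclins and CDKs, partners of the E2Fs, ubiquitin ligases, origin and polymerase subunits, checkpoint genes and kinetochore and cohesin genes, was described in the same way. A peak was listed for 118 of them (76.1%), with 219 peaks of median fold 2.23, and 44 of the 118 (37.3%) had a strong one. In that list 33.7% of placed peaks had their centre within 200 nt of the stop codon (interval 26.8% to 41.2%) and 21.9% covered it, against 21.9% and 10.9% in the 50 genes, and 13.5% had the centre in the 5′ UTR. The 178 placed peaks of the wider list held 41002 nt of exon. By role, a peak was held by 22 of 29 other cyclins, CDKs and regulators, 8 of 10 E2F partners and related factors, 19 of 22 ubiquitin ligase genes, 26 of 39 origin, helicase and polymerase genes, 16 of 17 checkpoint and p53 genes and 27 of 38 spindle, kinetochore and cohesin genes.

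The extremes of the wider list went beyond those of the 50 genes. Ube2s, the ubiquitin-conjugating enzyme that extends chains for the anaphase promoting complex, had a fold of 177 and a log10 p of -89.9 in a peak centred 40.5 nt past the stop codon. Fbxo5, an inhibitor of the same complex, had 9.21 and -77.2 centred 217 nt past it, and Btg2, an antiproliferative gene induced by p53, had 2.29 and -97.8 centred 127.5 nt past the stop codon. Mcm9, a helicase related to the Mcm2 family, had a fold of 36.0 and a log10 p of -7.67 over 481 nt of coding exons. The other extremes touched little or none of a coding message. The leading peaks of Cdk14 (fold 237, log10 p -164) and Prim2 (58.8, -30.2) touched 0 nt of a coding isoform, that of Pole (101, -23.0) touched 29 nt and that of E2f5 (2.94, -120) touched 26 nt. Another Cdk14 peak (87.2, -20) did touch 743 nt of a coding isoform, but could not be placed on the transcript with the longest coding sequence.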

How the data were processed

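Poly(A) RNA of splenic NK cells was measured in 2 m6A immunoprecipitates and 2 input RNA libraries, grouped by their labels. Per the methods of the study, reads were trimmed and aligned with HISAT2, peaks were called with exomePeak and assigned to genes with ChIPseeker. The submitters' processing notes name cutadapt, fastp, HISAT2 1.0, HOMER 4.1, ChIPseeker 1.0, StringTie 1.0, edgeR 4.1 and the build GRCm38. How replicates were combined is not given in the sources used here. The deposited list holds, for each peak, a fold enrichment, which is the authors' ratio of immunoprecipitate to input, and a score, which is the log10 of the authors' unadjusted peak-calling p-value. Its span includes introns, and its width was not used beyond the span itself.

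Of 20751 rows, 24 repeated another row and were dropped. Gene models were those of GENCODE M21. Of 12351 gene identifiers, 12332 were found. Each peak was placed by the centre of its exonic part on the coding transcript with the longest coding sequence, which was possible for 15220 peaks (73.4%). DRACH, GGAC and GGACT were counted on the gene's strand. Python 3.11.15, pandas 2.3.3, NumPy 2.4.6, SciPy 1.17.1 and matplotlib 3.10.9 were used, and placement and motif counting were checked on simulated data.

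The genes and lists were chosen with earlier results of these data known. Every one of the 50 genes is named, and in each role group the peaks with the highest fold and lowest p are given in full. Of the wider list, at most 5 genes by fold and 5 by p are named. Of its 156 symbols, 1 matched no gene. The count over the B cell marker list is not reported here. With no value per sample, no test was run, and depth and replicate error are unknown.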

Additional observations from a re-analysis of the deposited data

How the results depend on the processing

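Of 30 alternative settings over 7 results, 18 left the value within its spread or within 1.5 times the count. These included the 41 genes with a peak at a fold of at least 2 (29), at p under 0.001 (33) and with contact to a coding isoform (40), and the median fold of 2.19, which ranged from 2.16 to 3.03. The number of genes with a peak fell to 12 at a fold of at least 5 and to 5 at a fold of at least 10. The 12 genes with a strong peak became 21 at a fold of at least 3, 5 at a fold of at least 10, and 7 when p under 0.001 and contact with a coding isoform were both required, a setting added after the data were seen. The 3′ UTR share of 43.8% became 60.98% when the centre of the genomic span was used, which placed 41 peaks in place of 64. The share near the stop codon, 21.9% within 200 nt, was 9.38% within 100 nt, 34.4% within 400 nt, 10.9% for peaks that cover the stop codon and 8.33% for peaks of fold at least 5. The density of 19.4 DRACH sites per kb was 4.41 for GGAC and 0.956 for GGACT, motifs that are narrower by construction. Beyond the construction of each setting, the cause was not tested. No paired analysis was possible because the list gives no value per sample, and for the same reason no replicate could be left out.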
